A study of Mus musculus with 4 samples.

Results

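Interferon-stimulated genes are the genes that cells switch on when interferon binds its receptor, and 34 antiviral members of this class were followed here in RAW 264.7 cells, a mouse macrophage line. The 34 were a fixed list of symbols, taken from the 24422 named genes with the RefSeq transcript of the highest mean raw count kept for each, and all 34 were matched and passed the filter on low counts. Poly(A) RNA had been sequenced in 4 libraries, 2 of cells that stably carry the plasmid pcDNA 3.1(+) without insert (empty vector 1 and 2) and 2 of cells that stably carry it with Dnm3os, a long noncoding RNA (Dnm3os 1 and 2). No allele, deletion or drug treatment is named in the labels, and every culture was at passage 3 to 6 in medium with 10 mmol/L HEPES and a glucose concentration of 5.5 mmol/L. The labels do not tell whether the stable cells were clones or pools, or whether libraries of one group came from different cultures, so p-values measure spread between these libraries, which may be technical.

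Dnm3os had 0 and 0 counts in the empty vector libraries and 208 and 260 with Dnm3os, which matches the labels. Summed counts over 1 transcript per gene ranged from 29329201 to 39640782 per library. Of 8 macrophage markers 7 had a mean of at least 1 CPM (counts per 1000000 counts of the library, after scaling) and Mertk had 0 or 1 counts per library; their summed level, carried by Lyz2, was 9350 to 9500 CPM with the empty vector and 10200 to 10700 CPM with Dnm3os. Single markers went both ways: Itgam (2.01-fold), Fcgr1 (1.68-fold), Csf1r (1.21-fold) and Lyz2 (1.11-fold) were called higher with Dnm3os, Adgre1 (ratio 0.809) and Cd68 (ratio 0.928) were called lower, and Cd14 was not called. Markers of T cells, B cells, fibroblasts and epithelial cells each summed to at most 0.273 CPM in any library. Endothelial markers summed to 0.327 and 0.454 CPM with the empty vector and 1.02 and 0.907 CPM with Dnm3os, and 1 of them, Kdr, was called higher from counts of 8 and 11 against 21 and 22. Markers of plasmacytoid dendritic cells, the specialised interferon producers, summed to 61.7 to 62.1 and 62.2 to 64.1 CPM, nearly all from Tcf4. Neutrophil markers summed to 4.29 to 4.55 and 5.21 to 5.97 CPM, nearly all from S100a8, with 3 of 5 at 0. Their part in the results was not tested. In bulk RNA, fewer cells that express a gene and less of its RNA per cell cannot be told apart.

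Type I interferons act through the receptor chains Ifnar1 and Ifnar2 and the kinases Jak1 and Tyk2, which activate transcription factors, Stat2 among them. Stat2 acts with Irf9 in a complex that binds the interferon-stimulated response element, a short DNA motif in the promoters of the target genes. The products block viruses at many steps: they sense foreign RNA, cut or edit it, stop its translation, deplete nucleotides, tag proteins with the ubiquitin-like Isg15 or hold virions at the membrane. Macrophages both make and respond to type I interferon. Many of these genes are also expressed at a basal level without infection.

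The antiviral genes as a class were at nearly the same level in both groups. Their summed level was 4709 and 4668 CPM in the empty vector libraries and 4618 and 4620 CPM with Dnm3os. In the quasi-likelihood test of edgeR, with p-values adjusted over all 13136 genes tested, 2 members rose (Oasl1 and Sp100), 3 fell (Herc6, Oasl2 and Ifit1) and 29 did not pass the threshold of 0.05. The 5 called are 14.7% of the members, where 12.2% of all genes tested were called; 6.48% of all genes were called higher and 5.77% lower, against 5.88% and 8.82% of the members. These shares are near the background, so the count of calls is not a result about this class.

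Sizes were small. The median log2 fold change of the members was -0.02 and their range -0.32 to 0.19, against a median of 0.00 over all genes tested. In 26 of 34 members (76.5%) the estimate lay within 0.1 of 0 on the log2 scale, as it did in 58.6% of all genes tested and in 71.6% of those that averaged 10 CPM or more, a level that 33 of the 34 members reached. The 95% interval of the log2 fold change lay inside 1.25-fold in either direction for 32 members. The exceptions were Herc6, whose estimate was the largest, and Mx1, whose counts of 36 to 49 per library left it imprecise. The 2 libraries of one group did not overlap those of the other for 20 members (58.8%). The same held for 51.2% of all genes tested and for 54.3% of those that averaged 10 CPM or more. Of the 20 members, 7 were higher and 13 lower with Dnm3os, where 26.2% of all genes tested lay apart higher and 25% lower.

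**Figure D1:**
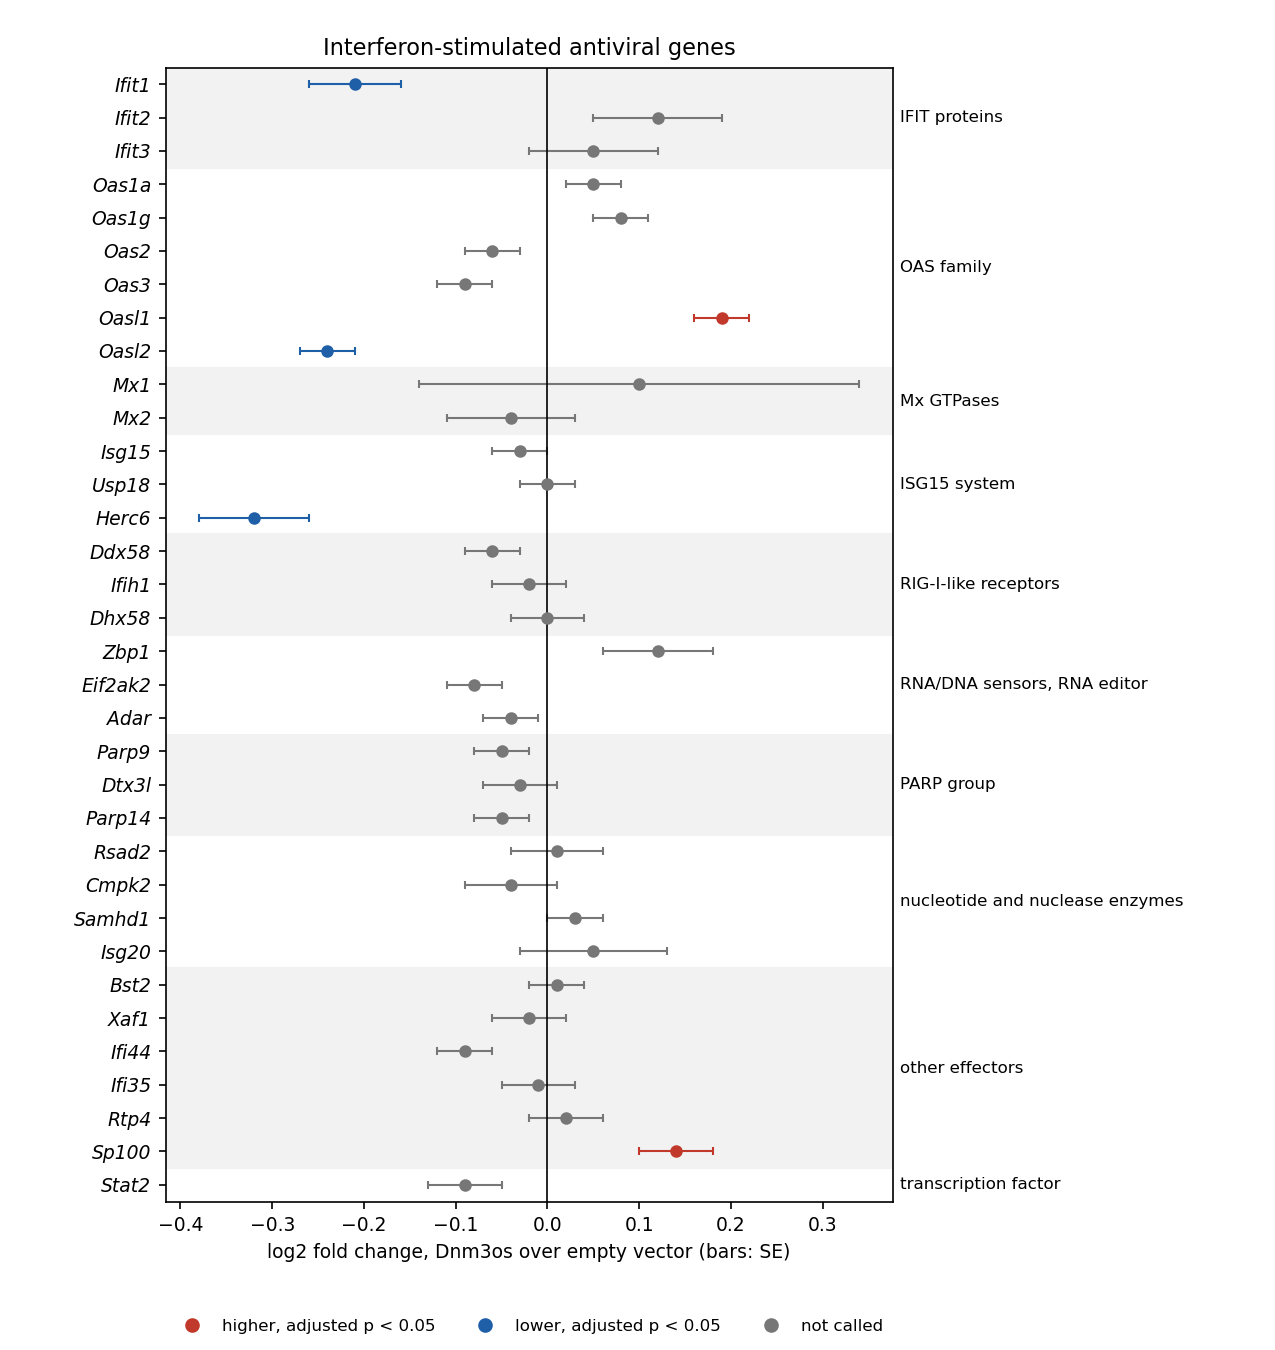
Log2 fold change of the 34 interferon-stimulated genes (x axis, Dnm3os over empty vector; bars are the SE of the edgeR fit, 2 libraries per group), ordered by subfamily. Red and blue points are the 2 members called higher and the 3 called lower; most of the others lie within 0.1 of 0.

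**Figure D2:**
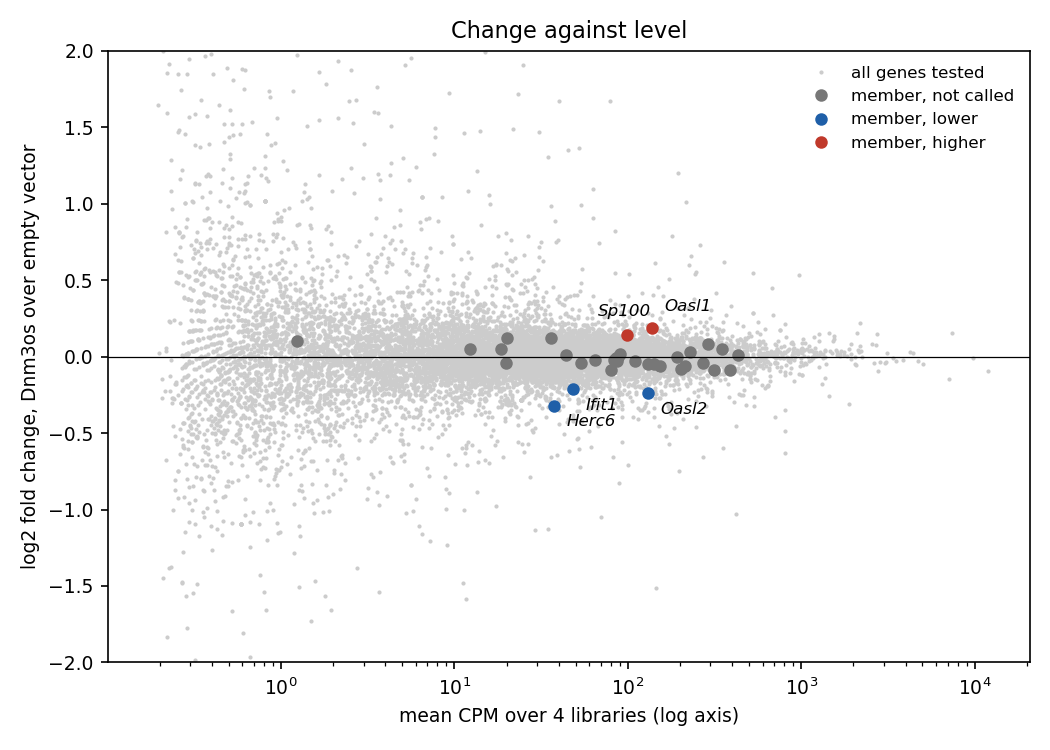
Log2 fold change (y axis) against mean CPM over the 4 libraries (x axis, log scale) for all 13136 genes tested (light grey; 76 genes lie beyond the limits of 2) and the 34 members (larger points). The called members are at mid to high levels, where the spread of all genes is narrow.

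In the oligoadenylate synthetase family the adjacent paralogs Oasl1 and Oasl2 moved in opposite directions. The family makes 2'-5' oligoadenylates as an antiviral signal or, in the OAS-like proteins, can act by other means: Oasl1 is known as an inhibitor of the translation of Irf7 mRNA. Oasl1 was at 129 and 128 CPM in the empty vector libraries and at 144 and 148 CPM in the Dnm3os libraries. Both Dnm3os libraries were above both empty vector libraries, a rise of 0.19 ± 0.03 (log2, SE; adjusted p = 0.000214 by edgeR). Oasl2 was at 145 and 137 CPM with the empty vector and at 120 and 119 CPM with Dnm3os. Here both Dnm3os libraries were below, a fall of 0.24 ± 0.03 (log2, SE; adjusted p = 3.38e-05 by edgeR). Within a library the ratio of the pair does not depend on scaling. There were 88.9 and 93.7 counts of Oasl1 per 100 of Oasl2 with the empty vector, and 120 and 124 with Dnm3os. With Oasl1 higher and Oasl2 lower in both Dnm3os libraries, the ratio restates these 2 changes and is no separate support. An exact permutation test of 2 against 2 cannot go below p = 0.333.

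The 4 other OAS genes were not called, and they too lay on both sides of 0. Oas1a, at 343 and 344 against 352 and 360 CPM, and Oas1g, at 281 and 283 against 293 and 303 CPM, were higher in both Dnm3os libraries, with log2 fold changes of 0.05 and 0.08. Oas2 was at 163 and 151 against 151 and 150 CPM and Oas3 at 326 and 321 against 310 and 298 CPM, with log2 fold changes of -0.06 and -0.09 (adjusted p = 0.0671 for Oas3 by edgeR). None of the 6 genes had overlapping groups, though for Oas2 the nearest libraries of the 2 groups round to the same value; 51.2% of all genes tested did not overlap. Oas1a and Oas1g are closely related neighbours and may share reads, so their separate values are uncertain; Oas1g stood at 81.9 to 84.2 counts per 100 of Oas1a in the 4 libraries.

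**Figure D3:**
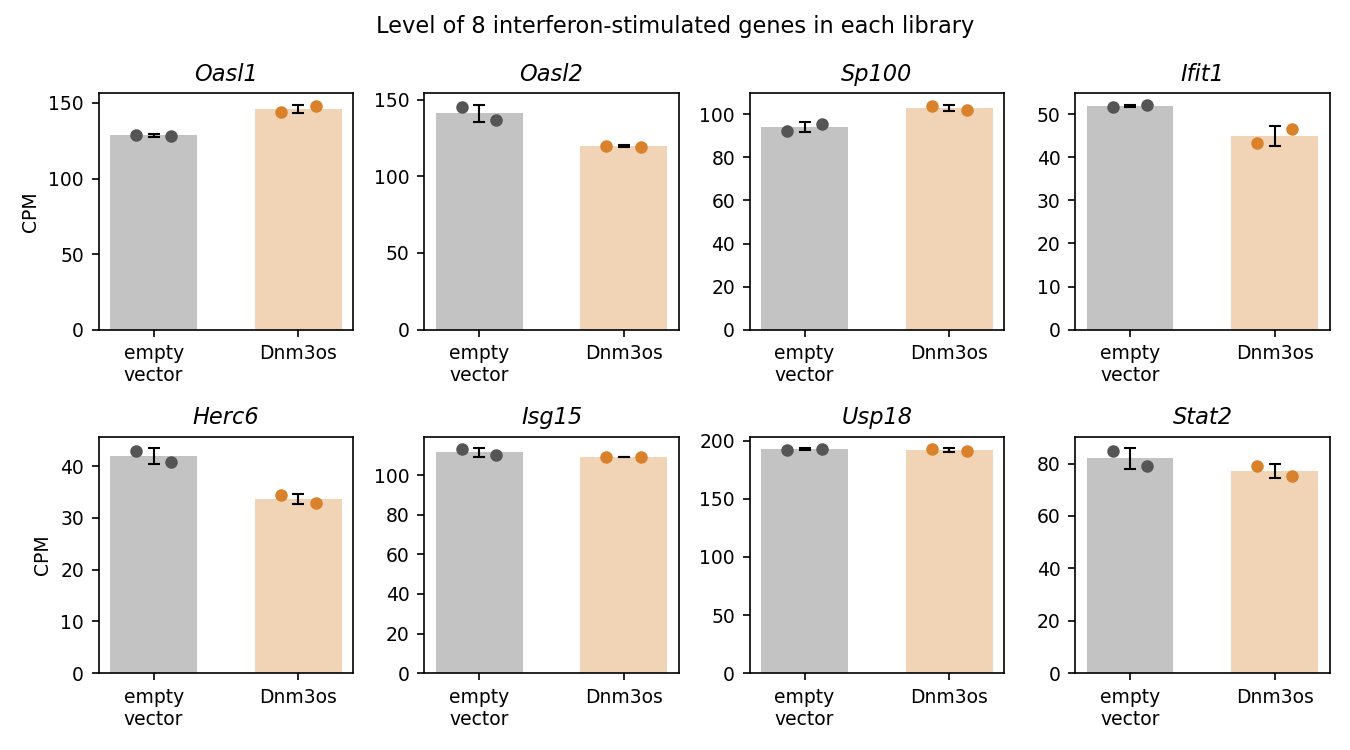
CPM (y axis, from 0) of 8 members in each library; points are libraries, bars the group mean and error bars the SD (n = 2). Oasl1 and Sp100 are higher and Oasl2, Ifit1 and Herc6 lower in both Dnm3os libraries, while Isg15 and Usp18 differ little.

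Among the IFIT proteins, Ifit1 fell, and Ifit2 and Ifit3 did not pass the test. The change of Ifit1 was not tested against theirs. Ifit1, which recognises messenger RNA caps that lack a methyl group, was at 51.7 and 52.1 CPM in the empty vector libraries and at 43.2 and 46.6 CPM in the Dnm3os libraries. Both Dnm3os libraries were lower, by 0.21 ± 0.05 (log2, SE; adjusted p = 0.0066 by edgeR), a call lost without Dnm3os library 1 (adjusted p = 0.114) and with DESeq2 (adjusted p = 0.0656). Ifit2, at 19.3 and 19.4 against 21.1 and 20.9 CPM, had a log2 fold change of 0.12 ± 0.07. Ifit3 was at 18.0 and 18.4 against 18.7 and 18.9 CPM, a difference of 0.05 ± 0.07 on the log2 scale. Neither passed the test. The groups of both lay apart with Dnm3os on the high side, as they did for 26.2% of all genes tested. There were 287 and 283 counts of Ifit1 per 100 of Ifit3 with the empty vector, and 230 and 247 with Dnm3os. The near-copy Ifit3b was at 16.0 and 16.2 against 15.7 and 15.7 CPM, and reads shared with Ifit3 make both uncertain. Ifit1bl1, a low-expressed relative of Ifit1, was at 1.43 and 1.68 against 1.19 and 1.05 CPM, lower in both Dnm3os libraries and not called (-0.47 ± 0.24 log2; adjusted p = 0.254 by edgeR).

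In the Isg15 system Herc6 fell, and Isg15 and Usp18 did not pass the test. Isg15 is attached to proteins through the activating enzyme Uba7, the conjugating enzyme Ube2l6 and, in the mouse, the ligase Herc6, and it is removed by Usp18, which also dampens signalling at Ifnar2. Herc6 was at 43.0 and 40.8 CPM in the empty vector libraries and at 34.4 and 32.9 CPM in the Dnm3os libraries. Both Dnm3os libraries were below, by 0.32 ± 0.06 (log2, SE; adjusted p = 0.000295 by edgeR), the largest change of the 34 members. Ube2l6, which is no member but was on the pathway list, fell from 138 and 133 to 108 and 105 CPM (-0.35 ± 0.03 log2; adjusted p = 8.03e-08 by edgeR). Uba7 was at 80.3 and 72.5 against 70.8 and 69.5 CPM and did not pass (-0.13 ± 0.05 log2; adjusted p = 0.0866 by edgeR).

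Isg15 was at 113 and 110 against 109 and 109 CPM (log2 fold change -0.03, 95% interval -0.10 to 0.04). Usp18 was at 192 and 193 against 193 and 191 CPM (0.00, 95% interval -0.06 to 0.07). These intervals leave room only for small differences. Per 100 counts of Isg15 there were 38.0 and 37.0 counts of Herc6 with the empty vector and 31.4 and 30.2 with Dnm3os, and for Ube2l6 122 and 121 against 98.5 and 96.1.

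Sp100, a component of nuclear bodies that restrict DNA viruses, was the other member that rose. It was at 92.3 and 95.7 CPM in the empty vector libraries and at 104 and 102 CPM in the Dnm3os libraries. The groups lay apart by 0.14 ± 0.04 (log2, SE; adjusted p = 0.0137 by edgeR), a call lost with DESeq2 and when either Dnm3os library or empty vector library 1 was left out (adjusted p from 0.0759 to 0.172). Its nuclear-body partner Pml was at 66.9 and 68.5 against 65.3 and 69.7 CPM, with overlapping groups. The other effectors did not pass. Ifi44, a cytoplasmic protein with antiviral activity, was at 394 and 407 against 376 and 376 CPM, lower in both Dnm3os libraries (-0.09 ± 0.03 log2; adjusted p = 0.0513 by edgeR), and was called under 8 of its 14 alternatives, with adjusted p from 0.0258 to 0.325 over all of them. Bst2, the membrane tether of virions also called tetherin, was at 423 and 434 against 433 and 428 CPM. Xaf1, a promoter of apoptosis, Ifi35, a partner of Nmi, and Rtp4, which binds zinc and restricts some viruses, had log2 fold changes between -0.02 and 0.02 with overlapping groups.

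Neither the RIG-I-like receptors nor Eif2ak2, Adar and Zbp1 were called. Of the RIG-I-like receptors, Ddx58 (RIG-I itself) was at 222 and 217 against 212 and 209 CPM, Ifih1 (MDA5, the sensor of long double-stranded RNA) at 85.2 and 81.7 against 82.1 and 82.2 CPM, and Dhx58 (LGP2, their regulator) at 88.8 and 85.8 against 86.8 and 88.0 CPM. None was called by edgeR, DESeq2 or limma-voom and 0 had an unadjusted p under 0.05 in any of the 3. The protein kinase Eif2ak2 (PKR), which stops translation on double-stranded RNA, was at 214 and 202 against 198 and 196 CPM (-0.08 ± 0.03 log2). The editing enzyme Adar was at 273 and 275 against 266 and 265 CPM (-0.04 ± 0.03 log2), and Zbp1, a sensor of left-handed nucleic acid that triggers cell death, at 34.6 and 35.1 against 37.2 and 38.3 CPM (0.12 ± 0.06 log2). In this trio the groups lay apart for every gene, as for 51.2% of all genes tested, and 2 had an unadjusted p under 0.05 by edgeR, as had 3050 of the 13136 genes. None was called by edgeR, DESeq2 or limma-voom, but Eif2ak2 was called lower when empty vector library 2 was left out (adjusted p = 0.0308 by edgeR, 0.0308 to 0.726 over its 14 alternatives).

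The remaining members differed by at most 0.10 on the log2 scale, and none was called by any of the 3 tools. Parp9, its partner ligase Dtx3l and Parp14, which add ADP-ribose or ubiquitin to their targets, had log2 fold changes of -0.05, -0.03 and -0.05. Rsad2 (viperin, which makes a chain-terminating nucleotide) was at 44.6 and 42.7 against 44.1 and 43.8 CPM, and Cmpk2, its neighbour in the genome and a nucleotide kinase, at 55.9 and 53.4 against 51.8 and 54.4 CPM. Samhd1, which hydrolyses deoxynucleotides, and the exonuclease Isg20 had log2 fold changes of 0.03 and 0.05. The dynamin-like GTPase Mx2 was at 20.1 and 20.3 against 18.6 and 20.7 CPM, and Mx1, which is defective in most laboratory mouse strains, was the lowest member at 1.16 to 1.35 CPM. Stat2, the transcription factor among the members, was at 84.7 and 79.2 against 79.0 and 75.4 CPM, lower in both Dnm3os libraries but not called (-0.09 ± 0.04 log2; adjusted p = 0.210 by edgeR).

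By CPM, which also depends on transcript length, most members lay above the median of all genes tested. The members' mean over the 4 libraries ranged from 1.24 to 430.0 CPM with a median of 94.4 CPM, against a median of 26.4 CPM over all genes tested. Levels of different genes can be set side by side only per transcript length, here the mean CPM of the empty vector group per kilobase of the matching GENCODE transcript. On that scale Bst2 led at 541, followed by Oas1a at 182, Isg15 at 148, Oas1g at 143 and Ifi44 at 138. Ifit2 at 5.07 and Mx1 at 0.445 were the lowest. For 10 members the files held more than 1 transcript, whose counts overlap: in 5 of them every further transcript held at least 95% of the count of the one kept, so for genes such as Adar (99.2 to 99.4%) the counts do not separate the interferon-induced long form from the constitutive one.

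The response element is a motif in promoters of interferon-stimulated genes, so promoter sequences were searched for it only as a description. RefSeq promoter windows (build GRCm38.p6, 250 bases before to 50 after each annotated start) were found for 25 of the 34 members. The core of the interferon-stimulated response element (a pair of GAAA tetramers with 2 bases between them, on either strand) was present in the window of 12 of these 25 (48.0%) and of 3.99% of the 27025 genes with a window. The gamma-activated site TTCNNNGAA, a palindrome that can overlap the first motif, was present for 8 of the 25 members (32.0%) and for 9.55% of all genes. Of the 5 called members, Ifit1 had the core and Oasl1, Oasl2, Herc6 and Sp100 had no match to it in their windows; no match says only that these letters are not there. Among the 20 uncalled members with a window, 11 held the core. Below are shown, 5' to 3' on the gene's strand, the stretches around the core in Ifit1, which fell, and in its uncalled neighbour Ifit3, and those of the uncalled Isg15, Oas1a and Oas1g; capitals mark the core or its reverse complement, with overlapping matches joined.
Ifit1, chr19:34640765-34640833, plus strand: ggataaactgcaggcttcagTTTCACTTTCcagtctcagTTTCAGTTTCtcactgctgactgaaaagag
Ifit3, chr19:34583353-34583436, plus strand: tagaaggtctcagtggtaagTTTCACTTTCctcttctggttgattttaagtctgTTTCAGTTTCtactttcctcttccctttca
Isg15, chr4:156200855-156200916, minus strand: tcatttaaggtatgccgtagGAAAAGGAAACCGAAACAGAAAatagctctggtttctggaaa
Oas1a, chr5:120907526-120907565, minus strand: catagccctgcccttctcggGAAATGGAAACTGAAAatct
Oas1g, chr5:120887614-120887651, minus strand: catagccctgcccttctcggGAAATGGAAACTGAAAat

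Ifit1 and Ifit3 each held 2 matches upstream of the start, Isg15 3 and both Oas1 genes 2. Over all 12 members with the core in their window, log2 fold changes ranged from -0.21 for Ifit1, the 1 called, through -0.09 for Oas3 and Stat2 to 0.08 for Oas1g. The paralogs with opposite changes, and the other called members without the core, are shown by the 120 bases directly before their annotated starts, with the half-site GAAA or its reverse complement TTTC in capitals.
Oasl1, chr5:114923120-114923239, plus strand: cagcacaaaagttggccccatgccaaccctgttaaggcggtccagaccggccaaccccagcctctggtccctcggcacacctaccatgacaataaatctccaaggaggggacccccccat
Oasl2, chr5:114896814-114896933, plus strand: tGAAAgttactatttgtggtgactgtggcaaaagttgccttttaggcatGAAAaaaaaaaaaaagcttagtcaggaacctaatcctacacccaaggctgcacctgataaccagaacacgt
Herc6, chr6:57580872-57580991, plus strand: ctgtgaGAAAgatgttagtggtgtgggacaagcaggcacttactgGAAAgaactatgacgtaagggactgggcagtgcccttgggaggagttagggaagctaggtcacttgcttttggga
Sp100, 1 of its 2 annotated starts, chr1:85649868-85649987, plus strand: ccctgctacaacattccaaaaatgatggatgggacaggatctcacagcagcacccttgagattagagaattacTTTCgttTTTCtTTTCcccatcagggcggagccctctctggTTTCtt
Oasl1 had 0 half-sites in this stretch, Oasl2 2, Herc6 2 and Sp100 4. These are matches of letters, not binding sites, and the starts used by RAW 264.7 cells were not measured.

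Upstream of the members, the interferon pathway was measured with a list of 45 genes ordered by role, of which 35 could be tested, 4 rose, 2 fell and 29 did not pass; the 6 called are 17.1% of those tested, against 12.2% of all genes. Of 9 interferon ligand genes 8 had 0 counts in all 4 libraries, which allows up to 3 counts or 0.0755 to 0.102 CPM per library. Ifnb1, the beta interferon, had 3 and 3 counts with the empty vector and 3 and 8 with Dnm3os, too few to test. The receptor chains Ifnar1, at 78.8 and 81.8 against 82.9 and 81.5 CPM, and Ifnar2, at 41.4 and 43.9 against 45.7 and 48.1 CPM, were not called (adjusted p = 0.682 and 0.0925 by edgeR). Of the 5 receptor genes tested 1 had an unadjusted p under 0.05 by edgeR, and DESeq2 and limma-voom called 0. The log2 fold change of Ifnar2 was 0.14, and 0.09 to 0.18 over its 14 alternatives. It was called higher only when empty vector library 2 was left out. Irf9, the DNA-binding partner of Stat2, at 69.1 ± 0.405 against 68.9 ± 1.52 CPM (mean ± SD, n = 2), had overlapping groups. Mavs, the adaptor of the RIG-I-like receptors, was at 35.9 and 38.3 against 37.7 and 34.4 CPM.

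Irf7, the factor that amplifies interferon induction, and Irf8, a lineage factor of monocytes and macrophages, moved in opposite directions. Irf7 was at 558 and 554 CPM with the empty vector and 518 and 513 CPM with Dnm3os, a fall of 0.11 ± 0.03 (log2, SE; adjusted p = 0.0101 by edgeR) not called when any library except empty vector library 2 was left out. Irf8 rose from 16.5 and 17.4 to 26.7 and 25.5 CPM (0.62 ± 0.07 log2; adjusted p = 4.07e-07 by edgeR). The kinase Ikbke, which activates Irf3 and Irf7, rose from 31.1 and 33.4 to 37.8 and 37.5 CPM (0.22 ± 0.06 log2; adjusted p = 0.0105 by edgeR), a call lost with DESeq2 and in the same 3 fits that left out a library. Of the feedback genes, Socs3, an inhibitor of cytokine receptor signalling, rose from 20.5 and 16.6 to 24.3 and 25.9 CPM (0.44 ± 0.08 log2; adjusted p = 0.0022 by edgeR), not called without Dnm3os library 2. The phosphatase Ptpn6 (SHP-1) rose from 361 and 356 to 387 and 391 CPM (0.12 ± 0.03 log2; adjusted p = 0.00959 by edgeR), not called when any library except empty vector library 1 was left out. The called genes lay in 4 of the 6 roles, with at most 2 in a role.

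**Figure D4:**
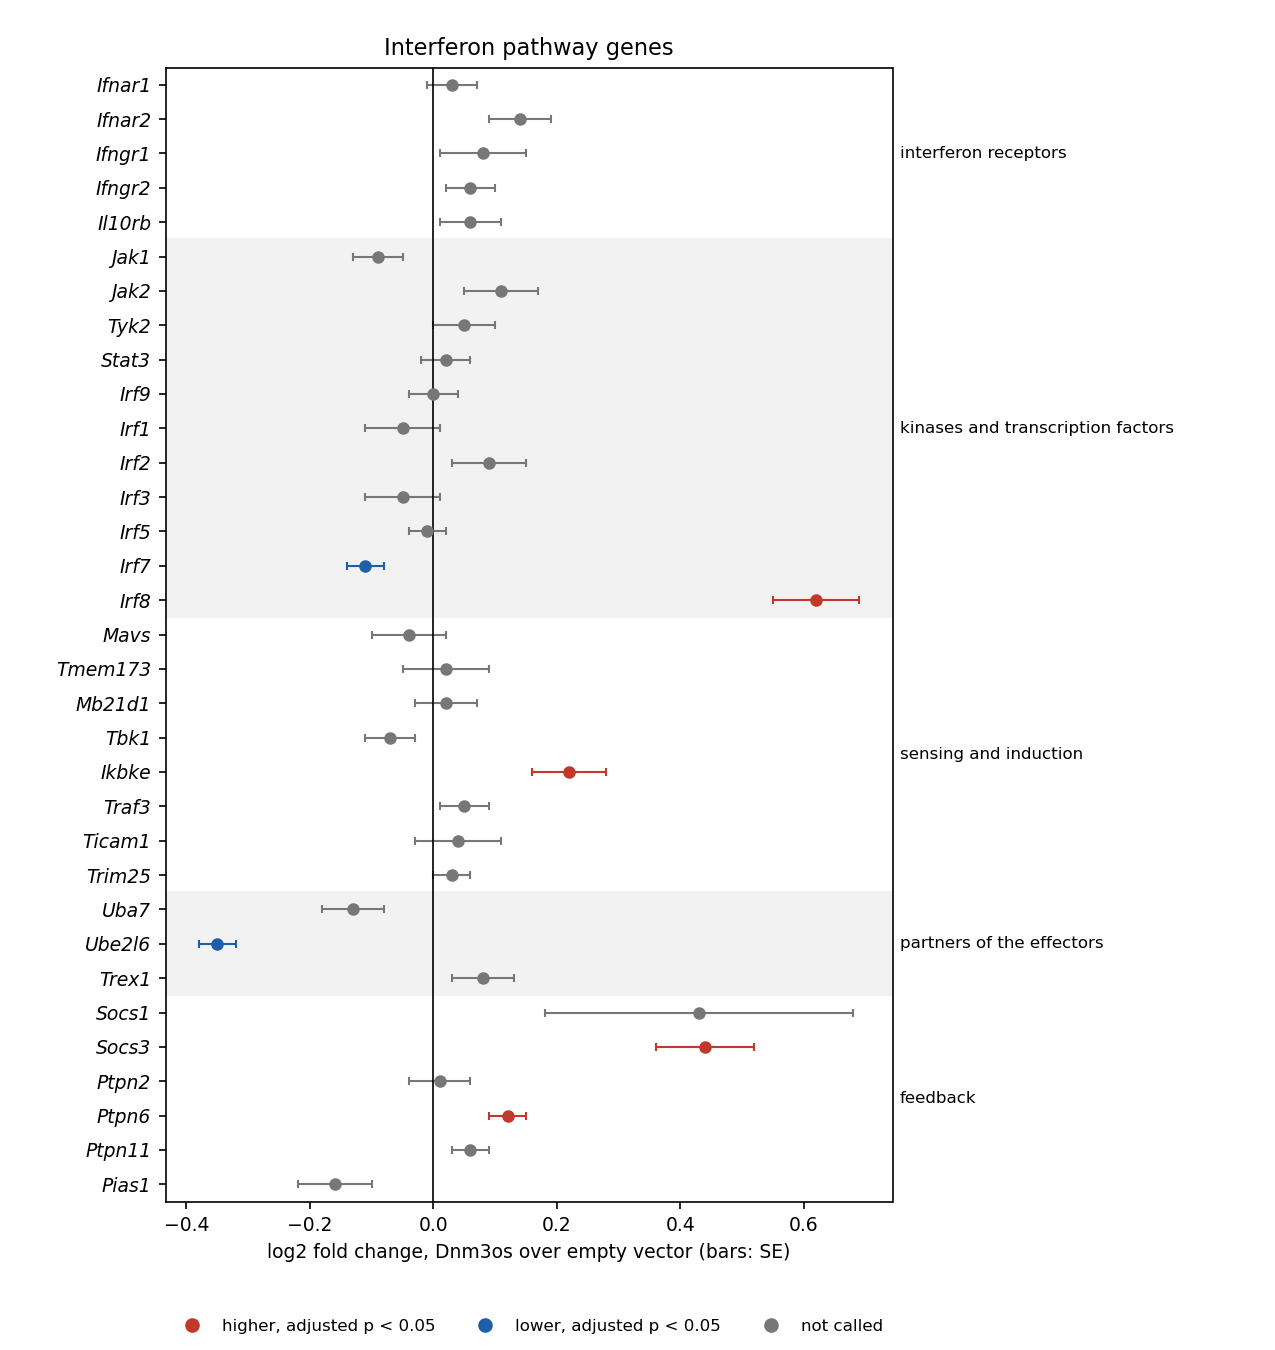
Log2 fold change of 33 of the 35 interferon pathway genes that could be tested (x axis, Dnm3os over empty vector; bars are the SE of the edgeR fit, 2 libraries per group), ordered by role. Irf8, Socs3, Ikbke and Ptpn6 (red) were called higher and Ube2l6 and Irf7 (blue) lower.

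A further 27 interferon-stimulated genes that are no members were measured too. Of the 26 tested, 3 rose, 2 fell and 21 did not pass, with a median log2 fold change of -0.01. The 5 called are 19.2% of those tested, where 12.2% of all genes were called. Lgals3bp, a secreted glycoprotein that binds galectins, fell from 330 and 330 to 210 and 209 CPM (-0.66 ± 0.03 log2; adjusted p = 2e-13 by edgeR), a larger change than that of any of the 34 members. Ly6e, a membrane protein that restricts coronavirus entry, rose from 753 and 748 to 858 and 884 CPM (0.22 ± 0.03 log2; adjusted p = 2.64e-06 by edgeR). The mitochondrial Ifi27l2a rose from 30.8 and 29.9 to 36.4 and 35.6 CPM (adjusted p = 0.00438 by edgeR), not called with DESeq2 or without Dnm3os library 1. The chemokine Cxcl10 rose from 25.5 and 20.5 to 28.4 and 28.4 CPM (0.30 ± 0.08 log2; adjusted p = 0.0281 by edgeR), a call lost with DESeq2, when isoforms were summed and when any library except empty vector library 1 was left out. Its log2 fold change was 0.16 when empty vector library 2 was dropped and 0.47 when library 1 was. The RNA helicase Znfx1 fell from 112 and 108 to 101 and 103 CPM (-0.11 ± 0.04 log2; adjusted p = 0.0379 by edgeR), a call lost under 7 of 14 alternatives, the replicate block among them and each library left out except empty vector library 2.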

How the data were processed

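Poly(A) RNA of RAW 264.7 cells was sequenced (TruSeq library kit, Illumina HiSeq), per the labels' protocols. Per the submitters' processing notes, Bowtie2, TopHat and DESeq2 were used, with no role stated, and the build was mm9. For the read counter, the annotation version and strand handling, the answer is not given in the sources used here. Per the file headers, each file holds the authors' raw count and normalized count for 35786 RefSeq transcripts; the deposited normalized signal is the raw count times 1 constant per library (0.8653 to 1.1723) and entered only 1 of the alternatives. Names came from RefSeq (35499) and GENCODE (178) tables. The 109 unnamed transcripts held 0.246 to 0.276% of counts and were left out, as was the 45S ribosomal RNA.

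Counts of the transcript with the highest mean per gene were filtered (filterByExpr), scaled by TMM (0.9971 to 1.0031 per library) and compared in edgeR 4.0.16 (robust glmQLFit, glmQLFTest, two-sided, Benjamini-Hochberg over 13136 genes, threshold 0.05) in R 4.3.3. CPM are per 1000000 scaled counts. SEs were derived from the log2 fold change and its F statistic (their quotient with F square-rooted), and 95% intervals use the fit's t quantile. Floors of 3 counts cover counting error only. The script was tested on simulated data. Same-numbered libraries are not stated to share material, so the block is an alternative. Replicates of a group differed by more than sampling noise (chi-square per gene of 5.70 and 4.59).

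Members and lists were chosen with earlier results of these data known. Named were all members, the called genes of both other lists and Ifnb1, Ifnar1, Ifnar2, Irf9, Irf7 and Mavs. Uba7, Pml, Ifit3b, Ifit1bl1, Socs1, Ifitm3, Kdr and the markers were named after their values were seen, as were the sequences of Isg15, Oas1a and Oas1g. Some genes of the pathway list are not reported here. Alternatives were other scalings, DESeq2 1.42.0, limma-voom (limma 3.58.1), 2 other filters, isoforms summed, the block and each library left out.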

Additional observations from a re-analysis of the deposited data

How the results depend on the processing

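The counts of calls were recomputed under 14 alternatives, and no estimate of a called gene changed direction. At least 6 members changed sign under at least 1 alternative, and the sign of the smallest estimates was lost in rounding. Of the 5 called members 3 (Oasl1, Oasl2 and Herc6) kept their call under all 14, and of the 29 others 25 were called under none; Ifi44, Oas2, Oas3 and Eif2ak2 were called lower under at least 1. With DESeq2, 1 member was higher, 1 other interferon-stimulated gene was higher and 1 lower. With no filter on low counts, 5 members and 4 pathway genes were lower. Of the other interferon-stimulated genes, 1 was lower with limma-voom, with isoforms summed and with a replicate block. Leaving out each library gave 1 to 2 members higher and 2 to 5 lower, 1 to 4 pathway genes higher and 1 to 3 lower, and 2 to 4 other interferon-stimulated genes higher and 1 to 2 lower. The 5 lower members came without empty vector library 2 and the 2 without Dnm3os library 1, and 1 member was higher when any library except empty vector library 2 was omitted. Omitting Dnm3os library 1 left 2 pathway genes higher and 1 lower; omitting Dnm3os library 2 left 1 and 1. Over all genes, 851 were higher and 758 lower, against 398 and 359 with DESeq2, 488 and 456 omitting Dnm3os library 1, and 434 and 372 omitting Dnm3os library 2; the cause was not tested. A lone library of a group is assumed to vary like the others. With the replicate block 2 members were higher and 3 lower, as without it, and no member's call changed. The deviations of same-numbered libraries correlated at -0.06 over all genes. With 1 difference per group, this cannot tell whether same-numbered libraries shared material, which the labels do not state. Depth limits Mx1, Ifnb1 and the other interferon ligands.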

Other observations

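Ifitm2 and Ifi204 differed more between the 2 Dnm3os libraries than between the group means; they were chosen after their values were seen. Ifitm2, a small membrane protein that blocks viral entry, was at 141 and 134 CPM in the empty vector libraries and at 136 and 226 CPM in the Dnm3os libraries, so Dnm3os library 2 alone was high (0.40 ± 0.35 log2, SE; adjusted p = 0.668 by edgeR). Its relative Ifitm3 was at 732 and 704 against 691 and 704 CPM and did not show this. Ifi204, a DNA sensor of a family of near-identical genes that can share reads, was at 82.3 and 105 against 116 and 78.0 CPM.

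Socs1, an inhibitor of the Jak kinases, was at 0.981 and 1.22 CPM with the empty vector and at 1.36 and 1.58 CPM with Dnm3os. These values came from 39 to 54 counts per library. Its groups did not overlap, as for 51.2% of all genes tested, and it was not called (0.43 ± 0.25 log2, adjusted p = 0.321 by edgeR).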
